A study of Mus musculus with 5 samples.

Results

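The mitochondrial genome transcripts were the 37 rows of the deposited expression table whose gene symbol begins with mt-, out of 38918 rows in all: 13 protein genes, 2 ribosomal RNAs (rRNAs) and 22 transfer RNAs (tRNAs). RNA had been sequenced from mammary tumours of mice that carry an SV40 transgene on the FVB strain, taken at 20 weeks of age. There were 3 libraries from offspring of dams fed a diet with 26% broccoli sprouts (BSp) between conception and weaning, called maternal BSp here, and 2 libraries from offspring of dams on the control diet. The offspring of both groups were themselves untreated, and all carried the transgene. The sources used here give neither the promoter of the transgene nor the number of dams or litters. Nothing states that the libraries of a group are separate animals, so a p-value here sets a difference against the spread among libraries, which may be technical. In whole tumours, fewer cells of a type and less RNA per cell cannot be told apart.

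The mitochondrial genome is a small circle present in many copies per cell. Both of its strands are transcribed into long RNAs, which are cut mostly at the tRNAs that lie between the other genes, and most of the resulting messenger RNAs then receive a poly(A) tail. Its protein genes encode core subunits of respiratory complexes I, III and IV and of the ATP synthase (complex V). All other subunits, and every protein that copies, transcribes or translates the genome, are made from nuclear genes. The series asks whether the diet of the dam leaves a trace in the tumours of her offspring, and the transcripts are described here by class, by gene and beside the nuclear partners.

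Only the protein genes carried values. Both rRNA rows (mt-Rnr1 and mt-Rnr2) and all 22 tRNA rows were listed at 0 in each of the 5 libraries. The same held for 4907 rows of the 7 nuclear classes of structural and small RNA, namely rRNA, snRNA, snoRNA, scaRNA, miRNA, misc_RNA and ribozyme, of which none had a value above 0. These rows are therefore reported as listed at 0, with no limit on the level of the RNAs, and the ratio of mt-Rnr1 to mt-Rnr2 could not be formed. All 13 protein genes passed the filter used for testing, a mean value of at least 10.

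Where neighbouring genes share bases, a read cannot be given to a single gene, so the shared stretches are shown for the genes on which the results turn. All are on GRCm38 chrM, are written 5′ to 3′ and were taken from the GENCODE M21 transcripts. mt-Atp8 (chrM:7766-7969, plus strand) shares its last 43 bases with the start of mt-Atp6, in capitals, which is 21.1% of its length. mt-Nd4l (chrM:9877-10173, plus strand) shares its last 7 bases with mt-Nd4, in capitals.
mt-Atp8: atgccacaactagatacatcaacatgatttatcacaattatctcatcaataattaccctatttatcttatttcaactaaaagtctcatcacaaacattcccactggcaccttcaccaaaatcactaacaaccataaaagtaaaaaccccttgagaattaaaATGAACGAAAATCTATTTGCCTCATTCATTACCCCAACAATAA
mt-Nd4l: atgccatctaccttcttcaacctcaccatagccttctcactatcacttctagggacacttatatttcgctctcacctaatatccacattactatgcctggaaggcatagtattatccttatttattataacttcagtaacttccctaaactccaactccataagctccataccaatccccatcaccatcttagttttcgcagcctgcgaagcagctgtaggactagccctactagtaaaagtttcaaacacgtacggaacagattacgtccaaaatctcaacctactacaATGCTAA

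mt-Nd5 (chrM:11742-13565, plus strand) and mt-Nd6 (chrM:13552-14070, minus strand) face each other and overlap by 14 bases, in capitals at the end of each gene's last 60 bases (chrM:13506-13565 and chrM:13552-13611). mt-Nd6 is the 1 protein gene on the minus strand. The library kit kept strand, per the labels' protocols, but whether the counting used it is not known. Without strand, RNA of mt-Nd6 and RNA from the opposite strand of the same stretch cannot be told apart.
mt-Nd5: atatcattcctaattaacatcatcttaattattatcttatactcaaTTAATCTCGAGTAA
mt-Nd6: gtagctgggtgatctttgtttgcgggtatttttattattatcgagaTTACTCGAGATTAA

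In 3 of the protein genes the annotated gene leaves 1 base over after its last whole codon, in capitals below; in such genes the poly(A) tail is known to complete the stop codon. They are shown because the libraries were made as mRNA libraries, per the labels' protocols. The ends are those of mt-Co3 (784 bases), mt-Nd4 (1378 bases) and mt-Cytb (1144 bases).
mt-Co3: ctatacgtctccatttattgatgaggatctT
mt-Nd4: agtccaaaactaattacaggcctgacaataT
mt-Cytb: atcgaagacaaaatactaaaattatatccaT

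Recovered depth was 8459029, 61663199 and 13796272 reads in maternal BSp replicates 1, 2 and 3, against 1106813 and 3909583 reads in control replicates 1 and 2. Values are reads per gene that the authors scaled to 1 common total of 1106813, so that a value of 1 is 1 read in control replicate 1. Luminal epithelial markers, a check of the tissue, had all 8 genes above 0 in every library and summed to 5060, 5714 and 5725 in maternal BSp and 4936 and 6131 in the controls. The 7 basal and myoepithelial markers summed to 1414, 1596 and 260 in maternal BSp replicates 1, 2 and 3, and to 3183 and 2066 in the controls.

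Maternal BSp replicates 1 and 3 held a larger share of mitochondrial reads than the other 3 libraries. The 13 protein genes took 11.6% (Wilson 95% interval 11.58 to 11.62), 2.41% (2.40 to 2.41) and 9.03% (9.02 to 9.05) of reads in maternal BSp replicates 1, 2 and 3, against 2.58% (2.55 to 2.61) and 2.56% (2.54 to 2.57) in control replicates 1 and 2. The intervals cover counting error only. The groups averaged 7.68% ± 4.74 in maternal BSp (SD, n = 3) and 2.57% ± 0.0186 in control (SD, n = 2), and they overlapped, because maternal BSp replicate 2 lay just below both controls. Maternal BSp replicate 2 was the deepest library and the controls were the shallowest, and the part of depth in the result was not tested. Without maternal BSp replicates 1 and 3, a choice made after the data were seen, the difference was -0.16 percentage points, against 5.11 with all 5 libraries.

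**Figure D1:**
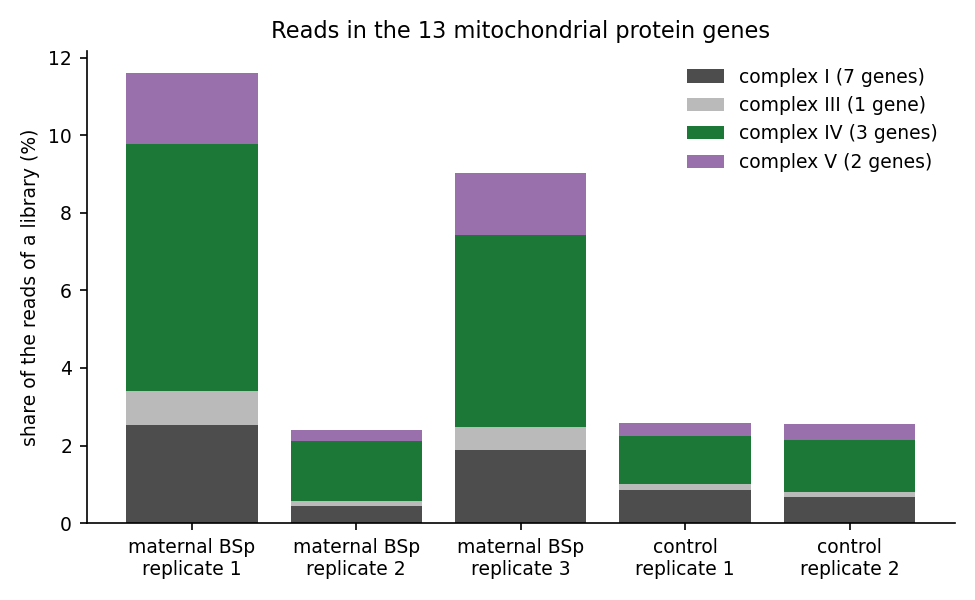
Share of each library's reads (%) in the 13 mitochondrial protein genes, stacked by the respiratory complex of the encoded subunit, with 1 bar per library. Maternal BSp replicates 1 and 3 reach 11.6% and 9.03%, while maternal BSp replicate 2 and both controls lie between 2.41% and 2.58%.

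Markers of other cells were compared with this order. The salivary gland list summed to 1886, 17.6 and 504 in maternal BSp replicates 1, 2 and 3 and to 451 and 52.9 in the controls. The secreted product Smr3a measured 1032, 0.0718 and 0.642 in maternal BSp and 92 and 0 in the controls, and Dcpp1 measured 315, 0 and 0.882 in maternal BSp and 210 and 0 in the controls. In maternal BSp replicate 3 the water channel Aqp5 made up 479 of the sum. Muc19 and Prol1 were at 0 in both controls, and Muc19 in all libraries. The 8 skeletal muscle markers summed to 3.40, 35.2 and 3.37 in maternal BSp and to 20 and 11.04 in the controls, with the muscle creatine kinase Ckm at 0.131, 4.63 and 1.20 in maternal BSp against 4 and 1.42 in the controls. The 5 brown fat markers summed to 9.68, 4.77 and 17.8 in maternal BSp and to 39 and 5.38 in the controls, with the uncoupling protein Ucp1 at 1.31, 0.0718 and 0 in maternal BSp against 6 and 0 in the controls. The brown fat sum in maternal BSp replicate 3 was above that of control replicate 2 and below that of control replicate 1. Globin genes of red blood cells summed to 130, 0.485 and 1201 in maternal BSp and to 494 and 147 in the controls. White fat markers summed to 51.4, 32.9 and 30.3 in maternal BSp and to 64 and 6.51 in the controls, with Adipoq, Plin1 and Lep at 0 in both controls. In control replicates 1 and 2 a single read is a value of 1 and 0.283. In maternal BSp Lep, Plin1 and Prol1 reached at most 0.0538, 0.393 and 0.393, and Adipoq measured 3.93, 0.179 and 0.160. The zeros of these genes in the controls are thus not read as a difference. Leukocyte markers summed to 214, 189 and 85.8 in maternal BSp and to 150 and 136 in the controls. The part of these cell types in the result was not tested.

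No mitochondrial gene passed the test over all genes. limma on log2(value + 1) called 0 of 9870 genes at an adjusted p under 0.05 (0% called), and the edgeR quasi-likelihood test on recovered reads called 0 as well (971 at an unadjusted p under 0.05, and 1101 with limma). DESeq2 called 87 (0.881%), of which mt-Atp8 was the 1 member. With libraries weighted by their own spread (array weights) limma called 699 genes (7.08%), of which 9 were members: mt-Atp6, mt-Atp8, mt-Co1, mt-Co2, mt-Co3, mt-Cytb, mt-Nd1, mt-Nd4 and mt-Nd4l. Among the 13 members the direction was higher in maternal BSp for 12 and lower for 1, with a median log2 fold change of 1.23. Over all genes tested the median was 0.21, and 63.2% were higher. Median-of-ratios scaling moved the median of all genes to 0.0029 and that of the members to 1.02. With it 11 members were higher, beside 50.2% of all genes tested. At an unadjusted p under 0.05, limma counted 3 members, all higher (mt-Atp8, mt-Co1 and mt-Nd4l), beside 791 of 9870 genes (8.01%) that were higher at that level and 310 (3.14%) that were lower. With median-of-ratios scaling these were 451 higher and 606 lower, and 1 member was at that level (2 with upper quartile scaling). The groups did not overlap for 2 members, both higher (mt-Atp8 and mt-Co1), a share of 15.4% beside 23.8% of all genes tested. In 11 members both maternal BSp replicates 1 and 3 lay above both controls, and in 9 members maternal BSp replicate 2 lay below both. The libraries were set apart in this way after the data were seen. The same counts over all genes were not made, and the members are not independent of each other. Without maternal BSp replicate 2 all 13 members were higher, with a median of 1.98 and 11 at an unadjusted p under 0.05, but none passed (smallest limma adjusted p 0.0622). In that fit the median of all genes was 0.08, and 1501 of 9676 genes had an unadjusted p under 0.05, of which 840 were higher. Without maternal BSp replicate 1 the median of the members was 0.79 and 10 members were higher, beside a median of 0.26 and 65.9% higher over all genes.

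**Figure D2:**
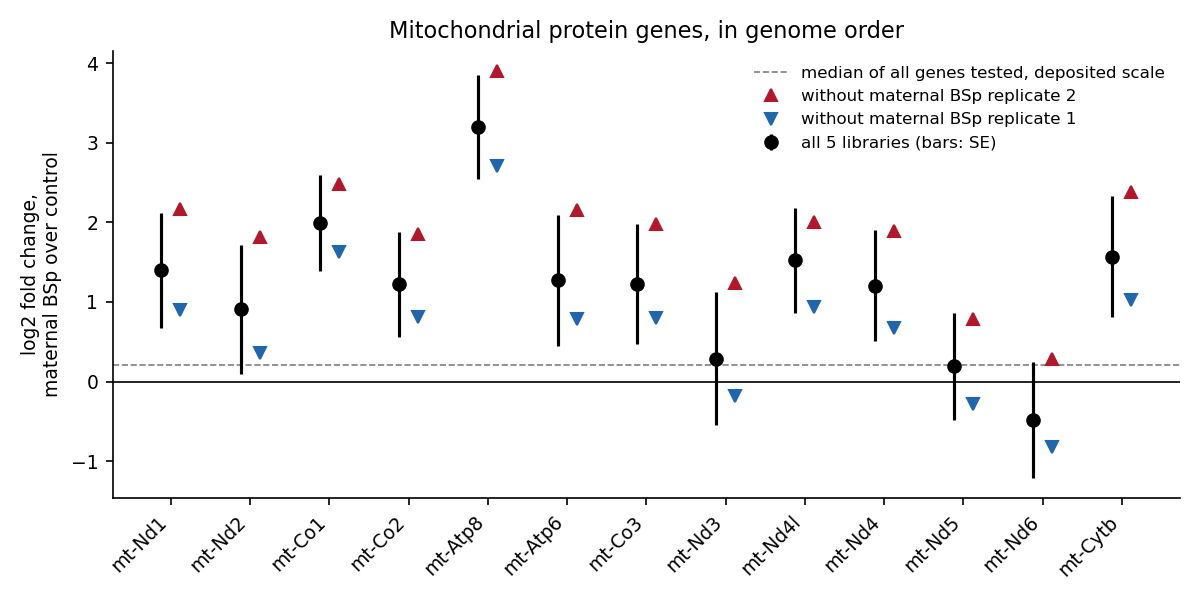
Fitted log2 fold changes, maternal BSp over control, for the 13 mitochondrial protein genes in genome order (black, with SE bars), and with maternal BSp replicate 2 (red) or 1 (blue) left out; the dashed line is the median of all genes tested. mt-Atp8 is highest at 3.19 and mt-Nd6 lowest at -0.48 with all 5 libraries.

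Of the ATP synthase genes, mt-Atp8 had the highest log2 fold change of the 13. mt-Atp8, a small subunit of the membrane part of the enzyme, measured 1550, 297 and 1071 in maternal BSp replicates 1, 2 and 3, against 92 and 79.3 in the controls. Every maternal BSp library was above both controls. Its log2 fold change was 3.19 (SE 0.65; limma unadjusted p 0.00113, adjusted p 0.407), and 2.71 to 3.90 with each library left out in turn. In the controls these values rest on 92 and 280 reads. It was called by DESeq2 on recovered reads (adjusted p 0.00106), not by edgeR (adjusted p 0.497). mt-Atp6, the subunit that forms the proton channel, measured 18771, 2833 and 16568 in maternal BSp and 3505 and 4491 in the controls. Its groups overlapped, since maternal BSp replicate 2 was the lowest library, and the log2 fold change was 1.27 (SE 0.82; limma adjusted p 0.559). mt-Atp8 and mt-Atp6 share an RNA in mammals, and their ratio was set by library: it was 0.0826, 0.105 and 0.0646 in maternal BSp and 0.0262 and 0.0177 in the controls. This ratio does not depend on how libraries are scaled, and its groups did not overlap.

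The 3 genes of cytochrome c oxidase (complex IV) took the most reads. mt-Co1, the catalytic subunit, measured 27115, 8217 and 19202 in maternal BSp, against 3992 and 4163 in the controls, and was the other member whose groups did not overlap (log2 fold change 1.99, SE 0.61; limma unadjusted p 0.0109, adjusted p 0.407). mt-Co2, which receives electrons from cytochrome c, measured 15142, 3563 and 11899 in maternal BSp and 3688 and 3717 in the controls. mt-Co3, a core subunit next to the catalytic one, measured 27975, 5369 and 23765 in maternal BSp and 6179 and 6878 in the controls. For mt-Co2 and mt-Co3, as for mt-Cytb, maternal BSp replicates 1 and 3 were high and replicate 2 was the lowest of all libraries; their log2 fold changes were 1.22 (SE 0.66) and 1.23 (SE 0.76). mt-Cytb, the mitochondrial subunit of complex III, averaged 5984 ± 4211 in maternal BSp (SD, n = 3) and 1551 ± 1.82 in control (SD, n = 2), a log2 fold change of 1.57 (SE 0.76; limma adjusted p 0.461).

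The 7 complex I genes, which encode its membrane arm, differed among themselves. mt-Nd1, mt-Nd2 and mt-Nd4 had log2 fold changes of 1.40 (SE 0.73), 0.91 (SE 0.81) and 1.20 (SE 0.70). mt-Nd1 averaged 5290 ± 3502 in maternal BSp and 1588 ± 83.5 in control, and mt-Nd2 averaged 3386 ± 2395 in maternal BSp and 1327 ± 81.1 in control (SD, n = 3 and n = 2). mt-Nd4 measured 6573, 1221 and 3914 in maternal BSp and 1746 and 1077 in the controls, so maternal BSp replicate 2 lay between the controls. At the lower end, mt-Nd3 measured 3073, 427 and 3081 in maternal BSp against 1158 and 1466 in the controls (log2 fold change 0.29, SE 0.83). mt-Nd5, with 3071, 705 and 1891 in maternal BSp against 2155 and 906 in the controls, had 0.19 (SE 0.67), which turned to -0.02 with median-of-ratios scaling. mt-Nd6 measured 1440, 306 and 1615 in maternal BSp and 1679 and 927 in the controls, and its -0.48 (SE 0.72) was the 1 negative value of the 13. The groups overlapped for these last 3 genes, and single libraries turned the direction: mt-Nd3 was -0.18 without maternal BSp replicate 1 and -0.19 without replicate 3, mt-Nd5 was -0.28 without maternal BSp replicate 1 and -0.43 without control replicate 2, and mt-Nd6 was 0.29 without maternal BSp replicate 2.

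mt-Nd4l was the member with the fewest reads. It measured 202, 45.3 and 79.3 in maternal BSp and 50 and 18.7 in the controls, from 1541, 2521 and 988 reads against 50 and 66 reads. Its log2 fold change was 1.52 (SE 0.66; limma unadjusted p 0.0489, adjusted p 0.444), and its groups overlapped. A copy of nearly the whole gene, identical over 294 bases, is annotated on chromosome 1 as Gm10222 (chr1:24612407-24612700), a gene model named here after its values were seen. Gm10222 measured 205, 45.03 and 75.7 in maternal BSp and 23 and 16.4 in the controls. Of the reads of the pair, mt-Nd4l held 49.6% (Wilson 95% interval 47.9 to 51.4), 50.1% (48.7 to 51.5) and 51.1% (48.9 to 53.4) in maternal BSp, and 68.5% (57.1 to 78) and 53.2% (44.5 to 61.8) in the controls. Reads were thus divided about evenly between the identical sequences in all libraries but control replicate 1, whose interval lay above an even split. Summed over both, the log2 fold change was 1.80, an alternative added after the data were seen.

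Similar copies exist for other members. A search of the GENCODE M21 transcripts with blastn, at 90% identity or more over at least 50 bases, found nuclear gene models matching 11 of the 13 members, with mt-Atp8 and mt-Nd1 as those without one. The 43 bases that mt-Atp8 shares with mt-Atp6 are too short for this search, and they lie within Gm10925, the copy that holds bases 1 to 678 of mt-Atp6. Only annotated transcripts were searched. The copies of mt-Co2 and mt-Atp6, the protein genes on either side of mt-Atp8, lie at chr1:24614885-24615565 and chr1:24613974-24614651. The stretch between them was not searched, and whether it holds the rest of mt-Atp8 was not tested. On chromosome 1, between 24611535 and 24616197, copies of 7 members lie together with an identity of at least 99.7%: parts of mt-Co1 and mt-Nd4, and nearly all of mt-Co2, mt-Atp6, mt-Co3, mt-Nd3 and mt-Nd4l. Of these chromosome 1 copies, only Gm10222 had a row under its symbol in the expression table. Of the 9 copies with a row, on any chromosome, 7 were at 0 in all libraries. These 7 matched at 90.7% to 97.6% identity, below the chromosome 1 copies, so their zeros do not speak for nearly identical copies. How the authors' counting treated reads that match several places is not known, so levels of the members with such copies are uncertain. For mt-Nd4l this is about the value of its copy. For the other members with a chromosome 1 copy no value of the copy was at hand, so the size is not known. It bears on the ratio of mt-Atp8 to mt-Atp6, the shares by gene and complex, and the order per length.

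The make-up of the mitochondrial reads does not depend on the scaling between libraries, and here the groups did not overlap for 7 of the 13 genes. By level they did not overlap for 2 of 13, and for 33% of all genes tested in either direction. That percentage is for levels, and no such background was made for shares within a set of genes. The shares of a library add up to 100%, so a higher share of 1 gene lowers those of others. A lower share is thus not a lower level: mt-Nd2 had a lower share and a log2 fold change of 0.91. mt-Atp8 made up 1.21% (Wilson 95% interval 1.19 to 1.23), 1.11% (1.097 to 1.13) and 1.07% (1.05 to 1.09) of the reads of the 13 genes in maternal BSp, against 0.322% (0.262 to 0.394) and 0.280% (0.249 to 0.315) in the controls. The 3 maternal BSp libraries lay close together although their total mitochondrial share differed widely. mt-Co1 made up 21.1%, 30.9% and 19.2% in maternal BSp and 14.0% and 14.7% in the controls, and mt-Cytb 7.68%, 5.66% and 6.58% against 5.43% and 5.47%. For mt-Cytb the gap between the groups was small next to the spread within maternal BSp. Lower in every maternal BSp library than in both controls were mt-Nd6 (1.12%, 1.15% and 1.62% against 5.87% and 3.27%), mt-Nd5 (2.39%, 2.65% and 1.89% against 7.54% and 3.20%), mt-Nd3 (2.39%, 1.60% and 3.08% against 4.05% and 5.18%) and mt-Nd2 (4.14%, 2.65% and 4.14% against 4.44% and 4.89%). The other 6 genes overlapped between the groups, and the mean shares of mt-Atp6, mt-Co2 and mt-Co3 in maternal BSp were 0.992, 0.9497 and 0.954 times those in control. No Wilson interval of these shares was wider than 0.477 percentage points to either side.

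**Figure D3:**
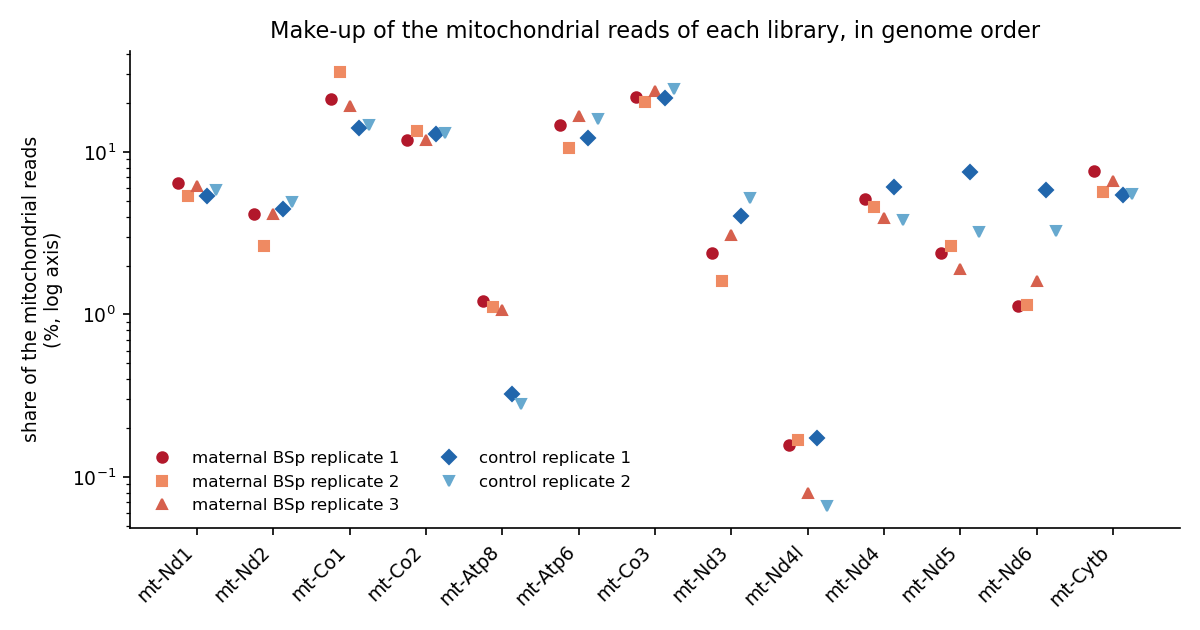
Share of the mitochondrial reads of each library (%, log axis) that fell in each of the 13 protein genes, in genome order, with 1 point per library. The maternal BSp points lie apart from the control points for mt-Atp8 (at least 1.07% against at most 0.322%) and for mt-Nd6 (at most 1.62% against at least 3.27%).

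Grouped by complex, complex I genes made up 21.8%, 18.2% and 20.9% of mitochondrial reads in maternal BSp and 33.5% and 26.2% in the controls. Complex IV genes made up 54.7%, 64.4% and 54.9% in maternal BSp and 48.5% and 52.1% in the controls. For both complexes every maternal BSp library lay on the same side of both controls. This did not hold for each gene of a complex. Of the complex IV genes only mt-Co1 had a share without overlap, and mt-Co2 and mt-Co3 overlapped. Of the complex I genes mt-Nd1, mt-Nd4 and mt-Nd4l overlapped. No such background was made for sums over other sets of genes. The complex V genes overlapped, at 15.8%, 11.8% and 17.6% in maternal BSp and 12.6% and 16.1% in the controls.

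These proportions were tested as 16 log2 ratios, namely each gene over the sum of the 13 and the pairs mt-Atp8 to mt-Atp6, mt-Nd4l to mt-Nd4 and mt-Nd6 to mt-Nd5. A two-sided exact permutation test over the 10 ways to choose 3 of 5 libraries cannot go below p = 0.1. That smallest value was reached by 5 ratios: mt-Atp8 to mt-Atp6, and mt-Atp8, mt-Co1, mt-Nd5 and mt-Nd6 over the sum. None passed after Benjamini-Hochberg adjustment over the 16 (smallest exact adjusted p 0.32). The mean log2 difference, maternal BSp minus control, was 1.94 for mt-Atp8 to mt-Atp6, 1.91 for mt-Atp8, 0.70 for mt-Co1, -1.102 for mt-Nd5, -1.78 for mt-Nd6 and -1.01 for mt-Nd3 over the sum. The groups did not overlap for 8 of the 16 ratios, which share members and are not independent. For levels on the deposited scale this held for 33% of all genes tested, and no such background was made for ratios. The ratio of mt-Nd6 to mt-Nd5 was 0.469, 0.435 and 0.854 in maternal BSp and 0.779 and 1.02 in the controls, with overlap, and a difference of -0.68 (exact p 0.3).

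Per length of gene, the ends of the order were the same in all libraries. mt-Co3 was highest and mt-Nd4l lowest in each of the 5 libraries, by deposited value per kb. mt-Co3 averaged 24281 ± 15334 per kb in maternal BSp and 8327 ± 631 per kb in control, and mt-Nd4l averaged 366 ± 277 per kb in maternal BSp and 116 ± 74.6 per kb in control (SD, n = 3 and n = 2). Between these ends the gap was 52.6-fold, 44.9-fold and 114-fold in maternal BSp replicates 1, 2 and 3 and 46.8-fold and 139-fold in the controls. By mean rank mt-Atp6 and mt-Co2 followed, at 18684 ± 12681 and 14915 ± 8733 per kb in maternal BSp and 5870 ± 1023 and 5413 ± 29.8 per kb in control. Their order changed between libraries: mt-Co2 was above mt-Atp6 in maternal BSp replicate 2 and control replicate 1. In maternal BSp replicate 2 mt-Co1 ranked 2 and mt-Atp6 ranked 4. mt-Nd5 was next to last in 3 of 3 maternal BSp libraries and mt-Atp8 in both controls. mt-Atp8 ranked 8, 6 and 8 of the 13 in maternal BSp and 12 in each control, and mt-Nd6 ranked 11, 11 and 10 in maternal BSp and 5 and 6 in the controls.

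**Figure D4:**
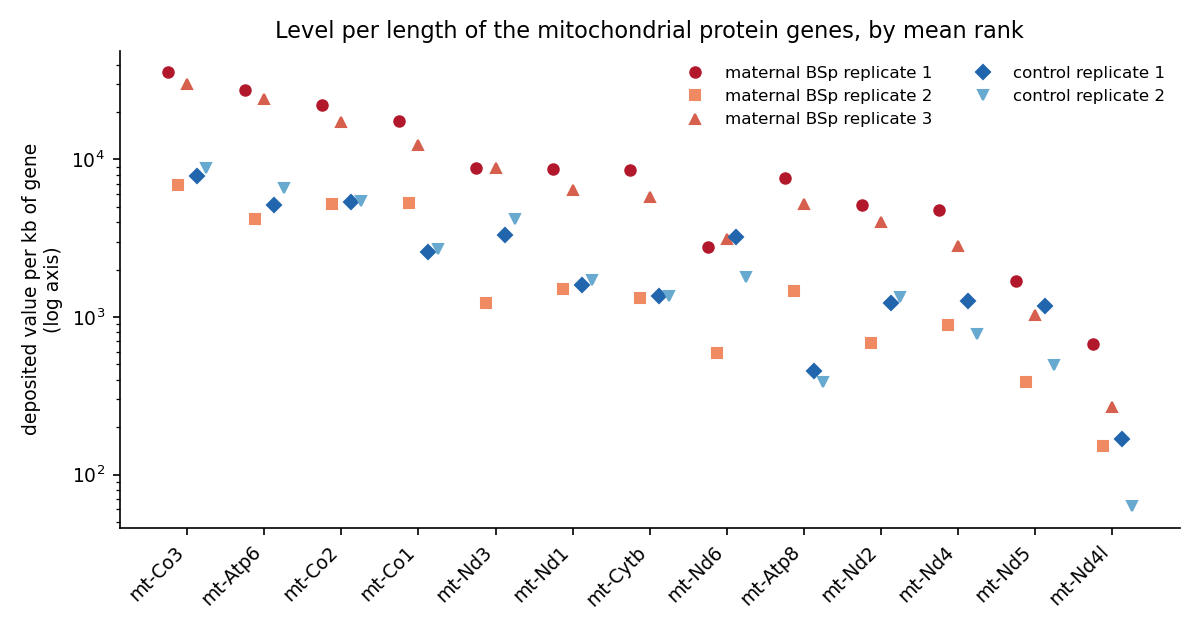
Deposited value per kb of gene (log axis) for the 13 mitochondrial protein genes, ordered by mean rank over the 5 libraries, with 1 point per library. mt-Co3 is highest and mt-Nd4l lowest in every library, and the control points of mt-Atp8, at 451 and 389 per kb, lie below its lowest maternal BSp point of 1454 per kb.

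Length, base composition and copies were set beside these shares. mt-Atp8, the gene with the highest fold change, is the shortest at 204 bases. The next shortest are mt-Nd4l at 297 bases, whose share overlapped, and mt-Nd3 at 348 bases, whose share was lower. GC content was 31.9% for mt-Atp8, 39.9% for mt-Co1 and 39.1% for mt-Cytb, the genes with a higher share, and 34.1%, 37.1%, 33.0% and 35.7% for mt-Nd6, mt-Nd5, mt-Nd3 and mt-Nd2, those with a lower one, and the ranges overlapped. Of the genes with a share that did not overlap, mt-Co1 and mt-Nd3 matched a gene model on chromosome 1 in this search of transcripts. The other 5 matched none there, apart from the shared end of mt-Atp8. For the rest of mt-Atp8 this does not show that a copy is absent, since the stretch beside the copy of mt-Atp6 was not searched. The part of length, base composition and copies in these shares was not tested.

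Nuclear subunit genes of the same complexes pointed the other way. Of 79 listed genes 78 were tested, and 67 were lower and 11 higher in maternal BSp, with a median log2 fold change of -0.58. Over all genes tested the median was 0.21, and 63.2% were higher. Without maternal BSp replicate 2 the median was -0.29 and 21 were higher, with medians of -0.31 for complex I, -0.30 for complex IV and -0.21 for complex V, against -0.61, -0.57 and -0.51 with all 5 libraries. None passed the test, and 12 had a limma unadjusted p under 0.05, all lower, beside 310 of 9870 genes (3.14%). Groups did not overlap for 29 genes that were lower and 2 that were higher, beside 9.21% and 23.8% of all genes tested. These lists, like the members, were chosen with earlier results of these data known. By complex, 34 of 37 complex I genes, 2 of 4 complex II genes, 7 of 9 complex III genes, 9 of 11 complex IV genes and 15 of 17 complex V genes were lower.

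Cox5a, a nuclear subunit of the enzyme that holds mt-Co1, measured 85.8, 162 and 310 in maternal BSp, against 641 and 565 in the controls (log2 fold change -1.88, SE 0.53; limma adjusted p 0.407). Cox6a1, of the same enzyme, averaged 321 ± 107 in maternal BSp and 721 ± 66.1 in control, and Cox7a2l, which helps it join larger assemblies, had a log2 fold change of -1.07 (SE 0.41). Atp5k, a membrane subunit of the ATP synthase, averaged 123 ± 53.8 in maternal BSp and 337 ± 19.1 in control (SD, n = 3 and n = 2; log2 fold change -1.54, SE 0.43). Atpif1, the inhibitor of that enzyme, and the ring subunit Atp5g1 had -0.82 (SE 0.35) and -0.97 (SE 0.50). In complex I, Ndufb8, Ndufa11 and Ndufb2 had -1.08 (SE 0.36), -1.08 (SE 0.40) and -1.14 (SE 0.44). In complex III, the hinge subunit Uqcrh had -1.17 (SE 0.48), Uqcrq -0.95 (SE 0.43) and the core subunit Uqcrc2 0.86 (SE 0.39). Complex II has no mitochondrial gene, and its Sdhc, Sdhd and Sdhb had 0.56, -0.58 and -0.36.

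Set side by side, the 78 nuclear genes took 1.29%, 1.02% and 2.04% of reads in maternal BSp replicates 1, 2 and 3, against 1.93% and 2.12% in the controls. The ratio of mitochondrial to nuclear reads was 8.99, 2.37 and 4.42 in maternal BSp and 1.34 and 1.21 in the controls. By this ratio all maternal BSp libraries lay above both controls, including replicate 2, where both sums were the lowest of the 5 libraries. The scaling between libraries cancels in the ratio, which has no test here because its members were chosen with results known.

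**Figure D5:**
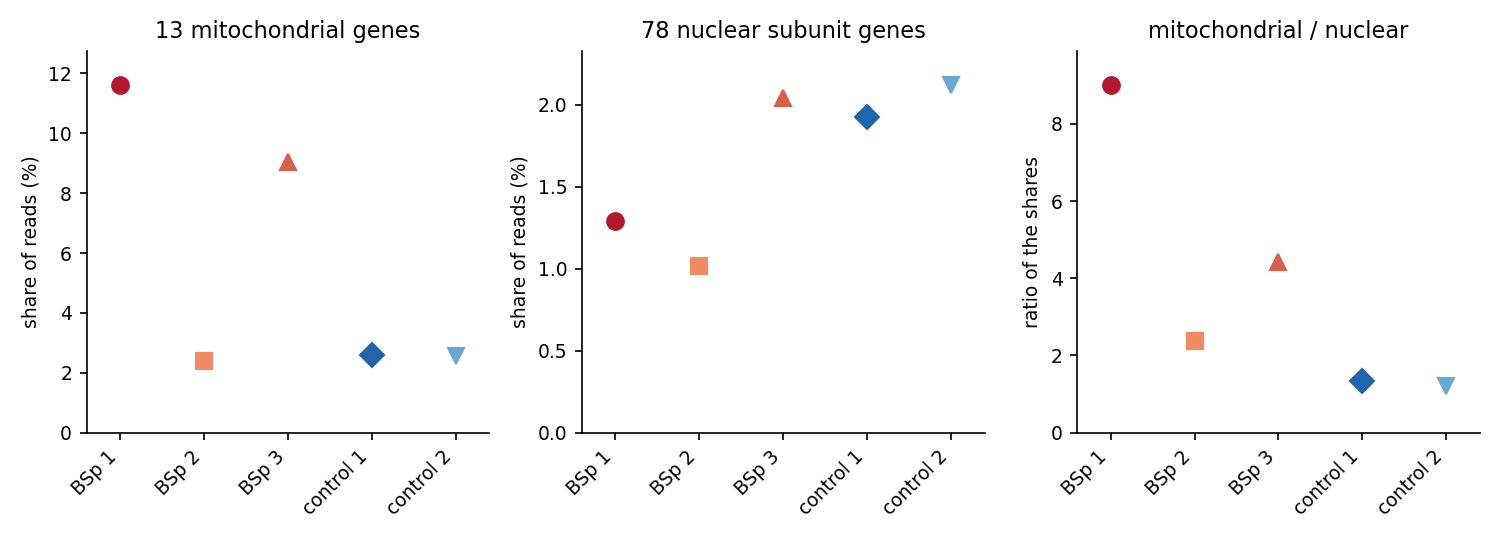
Share of reads (%) in the 13 mitochondrial protein genes, share in the 78 nuclear subunit genes, and the ratio of these shares, with 1 point per library and maternal BSp replicates 1 to 3 left of control replicates 1 and 2. The ratio is 2.37 or more in maternal BSp and 1.34 or less in control.

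Genes for the machinery of mitochondrial gene expression came next. Of 24 tested genes of mitochondrial transcription, RNA processing and RNA stability, 16 were higher and 8 lower in maternal BSp (median log2 fold change 0.53). Over all genes tested the median was 0.21, and 63.2% were higher. With median-of-ratios scaling 15 of the 24 were higher (median 0.32). None of the 24 passed. At a limma unadjusted p under 0.05 there were 4, all higher, beside 8.01% of all genes tested that were higher. Groups did not overlap for 11, all higher, beside 23.8% of all genes tested. Pnpt1, which degrades mitochondrial RNA, measured 24.2, 32.6 and 28.6 in maternal BSp and 5 and 13.3 in the controls (log2 fold change 1.66, SE 0.51; limma adjusted p 0.407). Pde12, which removes poly(A) tails in mitochondria, measured 47.4, 33.4 and 21.9 in maternal BSp and 11 and 15.0 in the controls. Polrmt, the mitochondrial RNA polymerase, measured 28.5, 29.6 and 34.9 in maternal BSp and 9 and 19.0 in the controls (log2 fold change 1.17, SE 0.44). For all 3 genes the controls were below every maternal BSp library, at values that rest on 5 to 11 reads in control replicate 1.

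Genes for copying the mitochondrial DNA were higher in 7 of 9 tested members (median 0.52), beside 63.2% of all genes tested. None of them was at an unadjusted p under 0.05. With median-of-ratios scaling 7 of 9 were higher (median 0.32), beside 50.2% of all genes tested. Dna2, a nuclease, the DNA polymerase Polg and Rnaseh1, which removes RNA from hybrids with DNA, had log2 fold changes of 0.65 (SE 0.39), 0.56 (SE 0.36) and 0.66 (SE 0.53). Of the regulators of mitochondrial biogenesis 6 of 7 were higher (median 0.23, and 4 of 7 with median-of-ratios scaling), led by Gabpa, a subunit of a transcription factor for many nuclear mitochondrial genes, at 90.3 ± 27.0 in maternal BSp and 39.3 ± 3.26 in control. Pprc1 and Nrf1 had 0.50 (SE 0.37) and 0.33 (SE 0.36). Proxies of mitochondrial mass were split, 10 higher and 6 lower of 16 (median 0.10, and 4 of 16 higher with median-of-ratios scaling). The channel Vdac2 had 0.58 (SE 0.39), the chaperonin Hspe1 -0.73 (SE 0.55) and the import receptor Tomm20 -0.43 (SE 0.33). The mass proxies took 0.262%, 0.299% and 0.362% of reads in maternal BSp and 0.267% and 0.344% in the controls, with overlap.

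Genes of mitochondrial translation differed by class. Mitochondrial ribosomal protein genes were lower in 47 and higher in 28 of 75 tested members (median -0.31, and 18 of 75 higher with median-of-ratios scaling), with 10 at a limma unadjusted p under 0.05, all lower, beside 3.14% of all genes tested, and none past the adjusted threshold. Without maternal BSp replicate 2 the median was -0.12. Mrpl53, Mrps18a and Mrpl37 had log2 fold changes of -1.72 (SE 0.39), -1.43 (SE 0.46) and -1.12 (SE 0.37). Mrpl53 measured 30.1, 16.5 and 20.3 in maternal BSp and 64 and 84.4 in the controls, without overlap. Translation factors were split, 6 higher and 5 lower of 11 (median 0.09, and 3 of 11 higher with median-of-ratios scaling), with the elongation factor Tsfm at -0.90 (SE 0.42), the ribosome recycling factor Gfm2 at 0.91 (SE 0.45) and the initiation factor Mtif2 at 0.82 (SE 0.53).

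Of the synthetases that charge the mitochondrial tRNAs, Lars2 stood apart. Lars2, for leucine, measured 8380, 1234 and 11826 in maternal BSp, against 94870 and 39432 in the controls, while no other synthetase of the list exceeded 209 in any library. Its log2 fold change was -3.62 (SE 0.97; limma adjusted p 0.407). Of the other 18 tested synthetases 14 were higher and 4 lower in maternal BSp (median 0.33), with Iars2 and Hars2 at 1.28 (SE 0.44) and 0.85 (SE 0.42). Over all genes tested 63.2% were higher (median 0.21). With median-of-ratios scaling the whole list, Lars2 included, had 13 of 19 higher (median 0.13). The controls were above maternal BSp for Gm26917 as for Lars2. Gm26917, a non-coding gene model on chromosome 17, measured 141, 56.5 and 698 in maternal BSp and 9222 and 5824 in the controls. Both gene models are known to share sequence with ribosomal RNA, and whether the reads counted to them come from these genes was not tested. Together they took 0.770%, 0.117% and 1.13% of reads in maternal BSp and 9.40% and 4.09% in the controls. With a common total that leaves both out, 12 of the 13 mitochondrial genes were still higher, with a median log2 fold change of 1.14. Over all genes tested 57.7% were then higher, with a median of 0.12.

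The authors' deposited table of genes that differ between control and BSp lists 2447 genes, beside 38918 rows in the expression table. None of the 37 mitochondrial rows is among them. Of these rows 24 were at 0 in every library, so only the 13 protein genes could be listed. With so few genes, their absence is not read as a result. The list is longer than any set called here, of which the largest was 699 genes with array weights.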

How the data were processed

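RNA of 5 mammary tumour libraries was compared, 3 maternal BSp against 2 control, grouped by the labels' description field. The deposited normalised values are a signal of reads per gene, per the file headers; every column sums to 1106813. FastQC, Trim Galore, cutadapt, STAR and DESeq with GRCm38 and mm10 are named in the submitters' processing notes; versions are missing there, and the counting tool is not given in the sources used here. All values above 0 were whole multiples of 1 read within 0.1 read (100%), and the value of 3 reads ran from 0.0538 to 3. From these, log2(value + 1) was fitted for 9870 genes (minimum mean value 10) with limma 3.58.1 (trend, no covariate, R 4.3.3), adjusted by Benjamini-Hochberg over all of them at 0.05. Fold changes on this scale understate those of low genes. edgeR 4.0.16 and DESeq2 1.42.0 were run on recovered reads. Ratios were tested by exact permutation, and shares carry Wilson intervals. The limma fit was tested on simulated data, and the other steps were not. Positions are from GENCODE M21, which names 35529 of 38918 features. Copies were sought with blastn 2.17.0. All members with values were named, and of each list the 3 genes with the smallest unadjusted p. Members and lists were chosen with earlier results of these data known. The same replicate number marks no shared animal or litter in the labels.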

Additional observations from a re-analysis of the deposited data

How the results depend on the processing

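The count of genes past the adjusted threshold was 0 with limma under every filter, pseudocount and scaling tried and with edgeR, 23 with the replicate block, 699 with array weights and 87 with DESeq2, and 0 to 1 with each library left out. Of the 13 members, the block and DESeq2 each called mt-Atp8 and array weights called 9. Whether the replicate numbers pair the samples is not known. Deviations of same-numbered libraries correlated at 0.094 and -0.092 across genes. With 2 controls these deviations are equal and opposite, so the correlations cannot decide about pairing. The block followed the numbers of the description field, and the sample titles number the controls otherwise. mt-Atp8 and 9 other members (mt-Co1, mt-Co2, mt-Co3, mt-Cytb, mt-Atp6, mt-Nd1, mt-Nd2, mt-Nd4 and mt-Nd4l) had a positive log2 fold change under all alternatives. mt-Nd3 was -0.19 with the replicate block and -0.19 to 1.24 with single libraries left out, mt-Nd5 -0.02 (-0.019) with median-of-ratios scaling and -0.43 to 0.82 with single libraries left out, and mt-Nd6 0.027 with array weights and -0.91 to 0.29 with single libraries left out. The difference in mitochondrial share was 5.87 percentage points of non-mitochondrial reads, 4.98 without Lars2 and Gm26917, 3.15 to 7.74 with each library left out, and -0.16 without maternal BSp replicates 1 and 3, added after the data were seen. Between 8 and 13 ratios did not overlap with single libraries left out (8 with all), the 13 without control replicate 1. Of 80 such ratio values 7 turned sign: over the sum of the 13, mt-Atp6 (-0.21 to 0.16), mt-Nd4 (-0.44 to 0.25), mt-Co3 (-0.15 to 0.017) and mt-Nd4l (-0.45 to 0.96), and mt-Nd4l to mt-Nd4 (-0.0096 to 0.71). The cause was not tested. With 2 controls of low depth, counting error is largest for mt-Atp8 and mt-Nd4l.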
